A study of Mus musculus with 3 samples.

Results

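Imprinted genes are transcribed mainly from either the maternal or the paternal copy, and most of them lie in clusters with a shared control region. Here 41 mouse genes that are known to be imprinted, or that lie within imprinted clusters, were followed in 3 sorted cell populations. A probe was assigned to a gene when it carried the accession of a RefSeq transcript of that gene, and where a gene had several probes their log2 values were averaged. In this way 66 probes measured 40 of the 41 genes, out of 20146 genes that could be named on the arrays, and *Rian* had no such probe. The arrays measure the RNA of a gene from both copies together, so that they show its level and not the copy it came from.

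The MGE-GFP+ cells were sorted from the medial ganglionic eminence (MGE) of female mouse embryos at E12.5, on a CD1 background and with a bacterial artificial chromosome (BAC) that drives green fluorescent protein from *Lhx6* sequences. The MGE is the embryonic forebrain structure that gives rise to most cortical interneurons. The ES-GFP+ and ES-GFP- cells were the fluorescent and the non-fluorescent cells of J14 embryonic stem (ES) cells, a male 129S4/SvJae line with the same *Lhx6*-GFP BAC and, per the labels, a viral 692-mCherry reporter. These had been differentiated as aggregates toward MGE for 12 days, with 100 ng/ml of the Wnt antagonist Dkk-1 and later 6 nM of the hedgehog agonist SAG. Each population was measured on 1 array, so no test was made and no SD between replicates exists. Because J14 is 1 line, its source, strain, sex and culture cannot be told apart between the embryonic and the ES-derived cells.

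The mark that separates the maternal and the paternal copy is DNA methylation at CG dinucleotides of the control regions, set in the germline and kept through later divisions by proteins such as ZFP57, TRIM28 and DNMT1. Several imprinted genes act on fetal growth, the best known being *Igf2*, a growth factor of the placenta and embryo that is made from the paternal copy, and *H19*, a noncoding RNA that is made from the neighboring maternal copy. Others, such as *Nnat*, *Ndn*, *Magel2*, *Peg3* and *Plagl1*, are abundant in the developing brain.

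Promoter sequences are shown for *Igf2*, *Dlk1*, *Grb10*, *Cd81* and *Usp29*, so that their CG content can be seen. These genes differed at least 2-fold between MGE-GFP+ and ES-GFP- cells, as did others, such as *Zim1* and *Ndn*, that are not shown. The sequences are windows of 250 bases before to 50 bases after a transcript start, from RefSeq on GRCm38.p6. They are written 5' to 3' in the direction of the gene, and the capitals mark each CG dinucleotide. The window of *Igf2* lies at chr7:142658755-142659054 on the minus strand and is the richest in CG of its 4 windows, the others holding 14, 7 and 2. No window was available for *H19*. That of *Dlk1* lies at chr12:109452573-109452872 on the plus strand, that of *Grb10* at chr11:12037371-12037670 on the minus strand (the richer in CG of its 2 windows, the other holding 9), that of *Cd81* at chr7:143052500-143052799 on the plus strand and that of *Usp29* at chr7:6730333-6730632 on the plus strand.
Igf2: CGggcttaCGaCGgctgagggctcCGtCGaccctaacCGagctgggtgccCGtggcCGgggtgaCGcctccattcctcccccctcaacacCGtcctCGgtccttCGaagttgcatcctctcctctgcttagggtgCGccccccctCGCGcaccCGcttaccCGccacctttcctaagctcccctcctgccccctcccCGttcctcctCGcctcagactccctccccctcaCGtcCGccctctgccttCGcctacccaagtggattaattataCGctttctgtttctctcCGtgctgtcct
Dlk1: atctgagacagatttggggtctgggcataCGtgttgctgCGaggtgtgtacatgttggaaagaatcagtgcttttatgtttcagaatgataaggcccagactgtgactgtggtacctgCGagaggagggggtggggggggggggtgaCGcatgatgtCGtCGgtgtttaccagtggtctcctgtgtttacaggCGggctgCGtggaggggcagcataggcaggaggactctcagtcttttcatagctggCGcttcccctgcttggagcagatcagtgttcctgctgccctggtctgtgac
Grb10: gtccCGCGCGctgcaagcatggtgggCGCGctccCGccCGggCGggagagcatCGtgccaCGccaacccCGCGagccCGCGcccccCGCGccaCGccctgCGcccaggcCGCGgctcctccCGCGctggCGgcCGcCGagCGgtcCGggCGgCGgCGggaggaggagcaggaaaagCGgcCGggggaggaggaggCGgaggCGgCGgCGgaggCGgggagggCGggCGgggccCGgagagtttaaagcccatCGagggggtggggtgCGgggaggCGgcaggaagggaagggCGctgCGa
Cd81: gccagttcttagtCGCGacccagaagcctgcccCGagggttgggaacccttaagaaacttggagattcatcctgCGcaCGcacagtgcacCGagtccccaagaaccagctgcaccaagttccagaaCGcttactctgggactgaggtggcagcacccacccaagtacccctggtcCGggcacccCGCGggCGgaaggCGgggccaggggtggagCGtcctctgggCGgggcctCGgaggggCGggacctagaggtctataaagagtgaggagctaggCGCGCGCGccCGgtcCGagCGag
Usp29: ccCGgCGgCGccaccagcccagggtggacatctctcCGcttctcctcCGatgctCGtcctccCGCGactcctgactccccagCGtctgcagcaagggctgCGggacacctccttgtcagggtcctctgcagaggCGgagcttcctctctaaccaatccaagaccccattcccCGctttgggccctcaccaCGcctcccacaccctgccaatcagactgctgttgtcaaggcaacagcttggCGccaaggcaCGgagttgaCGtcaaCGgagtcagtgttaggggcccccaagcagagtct
The shown windows of *Grb10*, *Igf2*, *Cd81*, *Usp29* and *Dlk1* held 45, 24, 23, 17 and 9 CG dinucleotides. The median was 13 over the 55 windows of 36 imprinted genes and 7 over all 32851 windows. The letters TGCCGC, the motif that ZFP57 binds, were found on either strand in 11 of the 55 windows (20.0%), compared with 11.6% of all windows, and the shown *Grb10* window held 1 of them. The letters GGGGCCCC, the core bound by PLAGL1, stood in 4 windows (7.27%), compared with 1.08% of all windows. These were windows of *Peg3*, *Usp29*, *Ppp1r9a* and *Rasgrf1*, and the divergent windows of *Peg3* and *Usp29* share 263 bases. A match describes the letters of the window only. Transcript starts close together give windows that share bases, so the windows are not independent.

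Levels are given as scaled intensity, the background-subtracted intensity of a probe after the 3 arrays were brought to the same 75th percentile, and differences as log2 of 1 array minus another. The intensities of different genes cannot be compared, since each probe has its own response. Among repeat spots of a probe the SD of log2 intensity was 0.139 to 0.144 per array, so that 2 SDs of a difference were 1.32-fold, an error that covers printing and reading but not culture, sorting or amplification. A level that did not exceed the 95th percentile of 106 control probes, which match adenovirus E1A or synthetic ERCC spike sequences, is described as within the control range. This limit was a scaled intensity of 188 on the MGE-GFP+, 360 on the ES-GFP+ and 176 on the ES-GFP- array.

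The ES-GFP+ array stood apart in its dim probes. The software called 90.6% of all probes well above background there, against 77.1% on the MGE-GFP+ and 80.3% on the ES-GFP- array. Also, 86 of the 106 control probes had that call on it, against 34 on each of the others. Lists of marker genes for the sorted cells and for other cell types moved with the populations. All 10 MGE markers were above the control range on every array, with a summed scaled intensity of 184667 on the MGE-GFP+, 100758 on the ES-GFP+ and 23832 on the ES-GFP- array. The sum of 8 neuronal genes was 185951 to 286627. Of 10 mesenchymal markers 1, 2 and 6 were above the control range in the same order, with sums of 528, 3336 and 4984, and of 10 endoderm markers 0, 1 and 6 were, with sums of 207, 1842 and 4332. The sums of 8 radial glia genes were 10513, 8645 and 43484. Those of 7 pluripotency genes without *Nanog*, whose single probe read 212373 to 278743, were 793, 1334 and 6043. Choroid plexus genes summed to 1104, 2354 and 3734, endothelial genes to 654 to 811, skeletal muscle genes to 1537 to 1950, and erythroid genes to 14573, 872 and 589. *Afp* was dim on every array, and *Alb*, *Sox17*, *Foxa2* and *Col1a1* were not well above background in MGE-GFP+ cells.

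Of the 40 imprinted genes with a probe, 28 were above the control range on all 3 arrays and 5 on no array. The share of all genes above the control range is not given. These counts and those of the marker lists therefore do not set their genes apart from others. *Phlda2* and *Tfpi2* were not well above background on any array and have no difference, which leaves 38 genes. *Slc22a18*, *Ascl2* and *Rasgrf1* also stayed within the control range on every array, and *Airn* had 1 bright and 1 dim probe. In the plot of levels by cluster, *Igf2* spread over several decades while most other genes kept similar levels in the 3 populations.

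**Figure D1:**
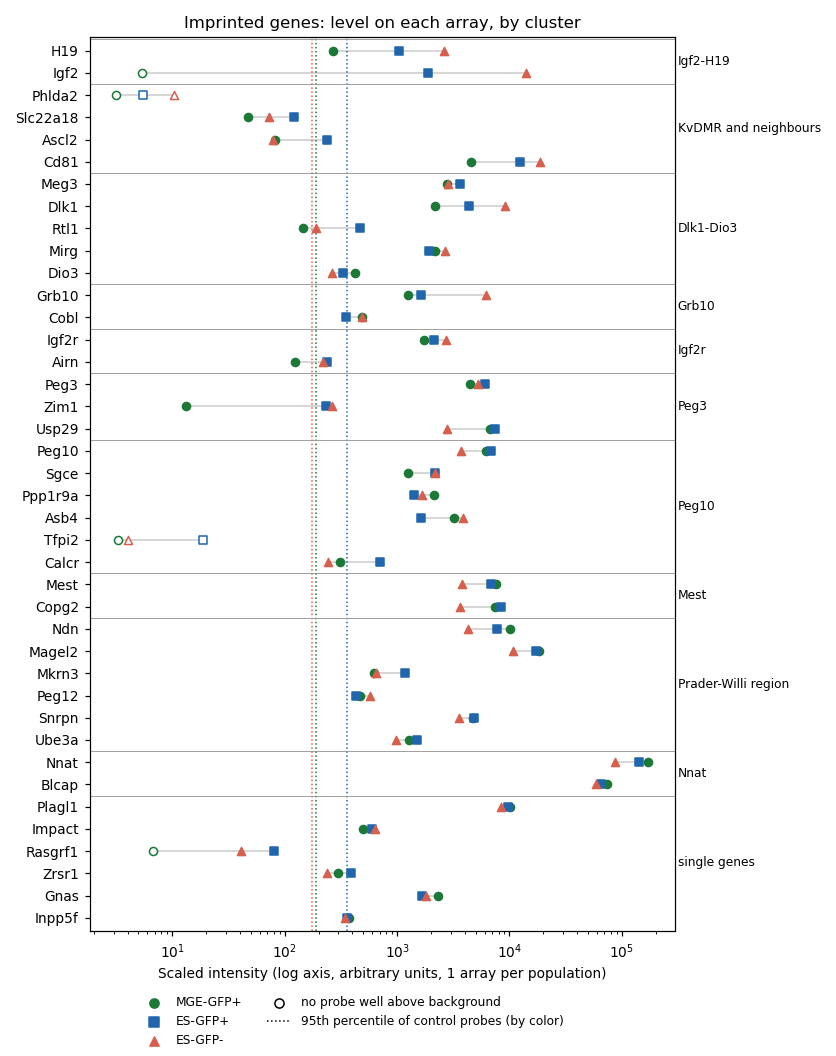
Scaled intensity (log axis) of the 40 imprinted genes with a probe on the MGE-GFP+ (circles), ES-GFP+ (squares) and ES-GFP- (triangles) array, grouped by imprinted cluster; open symbols had no probe well above background and the dotted lines mark the control range of each array (188, 360 and 176). *Igf2* ran from 5.33 on the MGE-GFP+ to 14170 on the ES-GFP- array, while *Plagl1* stayed between 8427 and 10197.

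The first comparison set embryonic against ES-derived cells of the same *Lhx6*-GFP+ gate. None of the 38 imprinted genes was at least 2-fold higher in MGE-GFP+ than in ES-GFP+ cells, compared with 5.48% of 18581 genes, and 9 were at least 2-fold lower (23.7%), compared with 32.2% of all genes. The median log2 difference was -0.21 for the imprinted genes and -0.36 for all genes. A total of 20 imprinted genes (52.6%) differed by no more than 2 SDs of the repeat spots, compared with 31.0% of all genes. In MGE-GFP+ against ES-GFP- cells 19 did (50%, beside 37.2% of all genes). In ES-GFP+ against ES-GFP- cells 13 did (34.2%, beside 37.9%), so the imprinted genes were not steadier in every pair. They were not matched to all genes for brightness. The 9 genes lower in MGE-GFP+ than in ES-GFP+ cells were *Igf2*, *Zim1*, *Rasgrf1*, *H19*, *Rtl1*, *Ascl2*, *Cd81*, *Slc22a18* and *Calcr*. The split depended on the scaling: with the arrays brought to the same 50th percentile 8 imprinted genes were higher and 4 lower (*Igf2*, *H19*, *Zim1* and *Rasgrf1*), as the median of all genes moved to 0.40. These were 21.1% and 10.5%, beside 26.0% and 17.1% of all genes. When each array was floored at its control range, 34 genes kept a value and 5 were lower (14.7%), beside 10.1% of all genes.

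Against ES-GFP- cells, 3 of 38 imprinted genes were at least 2-fold higher in MGE-GFP+ cells (7.89%), compared with 9.90% of 17026 genes, and 7 were at least 2-fold lower (18.4%), compared with 17.2%. The higher genes were *Usp29*, *Ndn* and *Copg2*, and the lower ones *Igf2*, *Zim1*, *H19*, *Grb10*, *Dlk1*, *Cd81* and *Rasgrf1*. The median log2 difference was 0.024 for the imprinted genes and -0.06 for all genes. With the 50th percentile 7 were higher and 7 lower (18.4% each), beside 17.9% and 12.6% of all genes, and the median of all genes was 0.25. This comparison shares the MGE-GFP+ array with the first, and the third shares an ES array with each.

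Within the ES-derived cells, 5 of 38 imprinted genes were at least 2-fold higher in ES-GFP+ than in ES-GFP- cells (13.2%), compared with 24.0% of 18656 genes, and 5 were at least 2-fold lower (13.2%), compared with 6.41%. *Ascl2*, *Calcr*, *Usp29*, *Rtl1* and *Copg2* were higher, and *Igf2*, *Grb10*, *H19*, *Asb4* and *Dlk1* lower. The median was 0.20 for the imprinted genes and 0.27 for all genes. With the 50th percentile 2 were higher (5.26%, beside 14.9% of all genes) and 6 lower, and the median of all genes was -0.18. With this scaling the share lower in ES-GFP+ cells was 15.8%, beside 13.7% of all genes, and with quantile normalization it was 10.5%, beside 15.0%, so that whether it exceeded the background depended on the processing. The same held for the genes lower in MGE-GFP+ than in ES-GFP+ cells, which were 18.4% beside 13.7% of all genes with quantile normalization and 15.8% beside 8.11% with the deposited values.

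**Figure D2:**
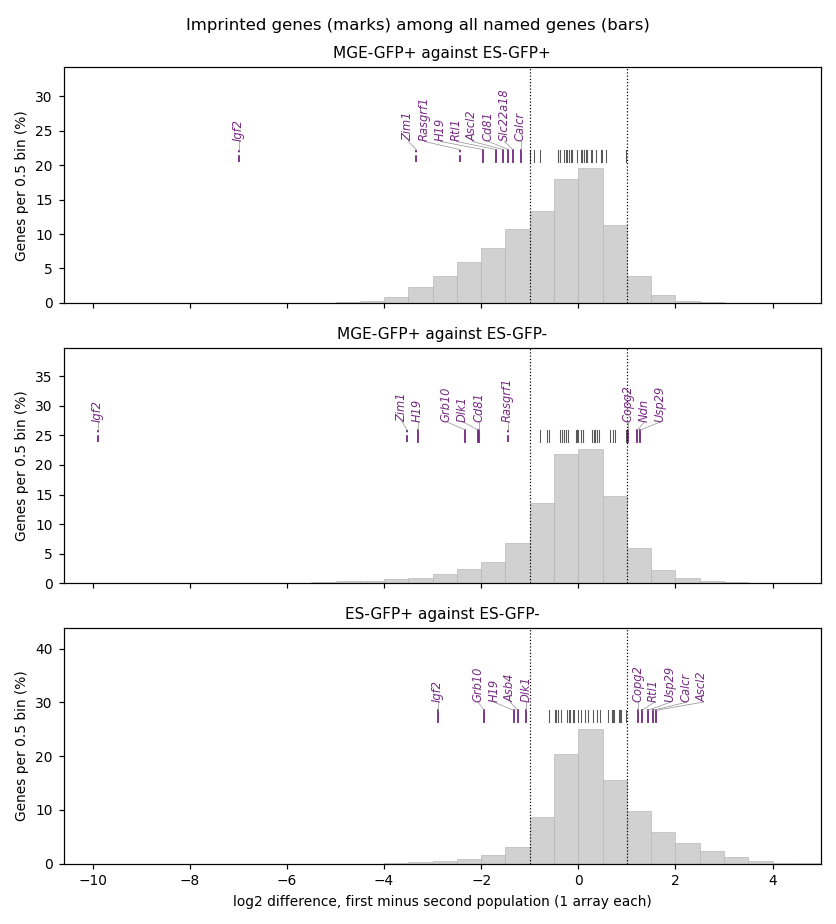
log2 difference of each imprinted gene (marks, named where at least 2-fold, dashed where the value is a bound) above the distribution of all named genes (bars, percent of genes in bins of 0.5) for the 3 pairs of arrays; dotted lines mark 2-fold. *Igf2* stood far to the left in both comparisons with MGE-GFP+ cells, at most -6.99 and at most -9.89, and most other imprinted genes lay between the dotted lines.

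*Igf2* showed the widest spread of all the imprinted genes. Its probe read a scaled intensity of 1902 on the ES-GFP+ and 14170 on the ES-GFP- array, and of 5.33 on the MGE-GFP+ array, where the software did not call it above background. With the lowest detected level of the MGE-GFP+ array in place of the dim value, *Igf2* was at least 127-fold lower in MGE-GFP+ than in ES-GFP+ cells and at least 948-fold lower than in ES-GFP- cells. It was 7.45-fold lower in ES-GFP+ than in ES-GFP- cells. All 3 directions held in each of 13 alternative settings. With each array floored at its control range the log2 bounds were -3.34 and -6.24 in place of -6.99 and -9.89.

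*H19*, which shares its enhancers with *Igf2*, followed the same order by 6 of its 7 probes. A first RefSeq probe read 345 on the MGE-GFP+, 3907 on the ES-GFP+ and 26710 on the ES-GFP- array, which put MGE-GFP+ cells 11.3-fold below ES-GFP+ and 77.5-fold below ES-GFP- cells. The second read 206, 278 and 257, and was within the control range on the ES-GFP+ array. These probes disagreed, and the mean of the pair gave *H19* log2 differences of -1.97, -3.30 and -1.33 for MGE-GFP+ against ES-GFP+, MGE-GFP+ against ES-GFP- and ES-GFP+ against ES-GFP-. The array design names 5 further probes *H19* without an accession. They ran from 101 to 447 on the MGE-GFP+, from 1378 to 6215 on the ES-GFP+ and from 6328 to 26165 on the ES-GFP- array, the order of the first RefSeq probe. Over all 7 probes the log2 differences were -3.37, -5.24 and -1.88.

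Markers of mesenchyme and endoderm differed between the arrays as well. Most of these markers were within the control range on the MGE-GFP+ and ES-GFP+ arrays, so they are given with each array floored at its control range. Against ES-GFP+ cells 2 mesenchymal genes and 1 endoderm gene, *Ttr*, then had a value, and all of them were at least 2-fold lower in MGE-GFP+ cells, beside 10.1% of all genes. With this floor, a gene within the control range on 1 array of a pair has a value only where the other array is higher. All of these genes were within it on the MGE-GFP+ array, so their direction was fixed by the filter. *Fn1*, the mesenchymal gene above it there, had no value in this pair. Against ES-GFP- cells 5 of 6 mesenchymal and 3 of 5 endoderm genes were at least 2-fold lower, beside 10.6% of all genes, as were 3 of 3 choroid plexus genes. *Ttr* is on both the endoderm and the choroid plexus list. Only 1 mesenchymal, 0 endoderm and 1 choroid plexus genes were above the control range on the MGE-GFP+ array, so most of these directions were again fixed. In ES-GFP+ against ES-GFP- cells 1 of 5 mesenchymal, 2 of 3 endoderm and 1 of 3 choroid plexus genes were lower, beside 5.98% of all genes. The same filter acted here, with 2, 1 and 2 genes of these lists above the control range on the ES-GFP+ array. *Igf2* is known to be strongly expressed in embryonic mesenchyme, endoderm and choroid plexus, and *H19* in the former pair. In bulk samples fewer cells of a type and less RNA per cell cannot be told apart, and the part of these cell types in the levels of *Igf2* and *H19* was not tested.

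Other genes of the insulin-like growth factor (IGF) axis were read from a list of 15. At least 2-fold lower in MGE-GFP+ cells were 5 against ES-GFP+ (33.3%, beside 32.2% of all genes) and 6 against ES-GFP- cells (40.0%, beside 17.2%). In each, 1 was higher (6.67%, beside 5.48% and 9.90% of all genes), and the medians were -0.22 and -0.62. With the floor at the control range 2 of 13 (15.4%, beside 10.1% of all genes) and 4 of 13 (30.8%, beside 10.6%) were lower. *Igfbp5*, which encodes a secreted IGF-binding protein, read 430 on the MGE-GFP+, 3471 on the ES-GFP+ and 27231 on the ES-GFP- array. It thus rose through the arrays in the order of *Igf2*. *Igfbp2*, another binding protein, read 1131, 2113 and 6201. *Igfbp1* was dim on the MGE-GFP+ array (15.0, without the call) and read 1221 and 1326 on the ES-GFP+ and ES-GFP- arrays, so that it was at least 81.1-fold and at least 88.2-fold lower in MGE-GFP+ cells. With the floor at the control range its log2 bounds were -2.70 and -2.82. *Igf1r*, the receptor through which IGF2 signals, was highest on the MGE-GFP+ array. It read 5074, 1444 and 2543 and was 3.51-fold higher in MGE-GFP+ than in ES-GFP+ cells. *Igfbp7*, a more distant relative of the binding proteins, read 1461, 738 and 614 and was also highest on the MGE-GFP+ array, 2.38-fold above ES-GFP- cells. *Igf2r*, an imprinted gene made from the maternal copy, encodes the receptor that takes up IGF2 for breakdown. It read 1719, 2117 and 2697 with differences under 2-fold, and of the 4 *Igf1* probes 1 was above the control range on each array.

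**Figure D3:**
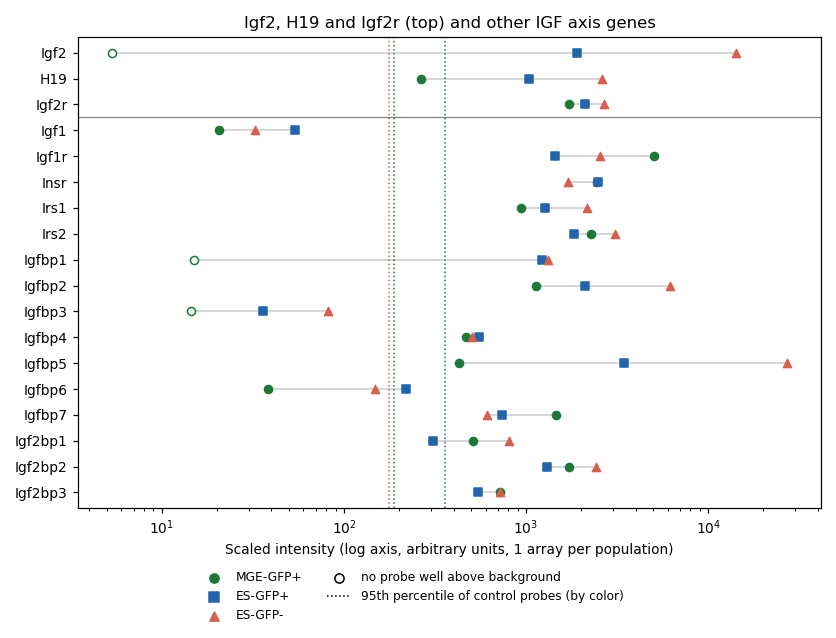
Scaled intensity (log axis) of *Igf2*, *H19* and *Igf2r* above 15 other genes of the IGF axis on the 3 arrays, with symbols as for the levels by cluster. *Igf2*, *H19*, *Igfbp2* and *Igfbp5* were lowest on the MGE-GFP+ and highest on the ES-GFP- array, while *Igf1r* and *Igfbp7* were highest on the MGE-GFP+ array, at 5074 and 1461.

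*Cd81*, a tetraspanin of the cell membrane that lies next to the *Kcnq1* imprinted domain, was the only gene of its group of 4 above the control range. It read 4555 on the MGE-GFP+, 12360 on the ES-GFP+ and 18795 on the ES-GFP- array. MGE-GFP+ cells were thus 2.71-fold and 4.13-fold lower, and over 13 alternative settings the log2 differences ranged from -1.85 to -0.69 and from -2.15 to -1.74. *Ascl2*, a transcription factor of the placenta, read 81.4, 238 and 78.2, and *Slc22a18*, a transporter, read 47.1, 120 and 71.8. Both were within the control range on all arrays.

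In the *Dlk1*-*Dio3* cluster the protein-coding genes are made from the paternal and the noncoding RNAs from the maternal copy. *Dlk1*, a transmembrane relative of the Notch ligands, read 420, 1561 and 3084 on the MGE-GFP+, ES-GFP+ and ES-GFP- array with its dimmer probe and 11383, 12162 and 27104 with its brighter one. Both probes put ES-GFP- cells highest, and on average MGE-GFP+ cells were 4.18-fold lower than ES-GFP- cells. Against ES-GFP+ cells the probes differed, with log2 values of -1.89 and -0.10. *Meg3*, the noncoding RNA across from *Dlk1*, had 3 probes above the control range. These gave log2 differences of -0.11, -0.23 and -0.89 in MGE-GFP+ against ES-GFP+ cells and of -0.78, 0.94 and -0.25 against ES-GFP- cells, so that no common order emerged. *Rtl1*, derived from a retrotransposon, read 146, 472 and 190 and was 3.23-fold lower in MGE-GFP+ than in ES-GFP+ cells, but on the MGE-GFP+ array it was within the control range. *Mirg* read 1916 to 2651 and *Dio3*, a thyroid hormone deiodinase, 266 to 421, with all differences under 2-fold.

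**Figure D4:**
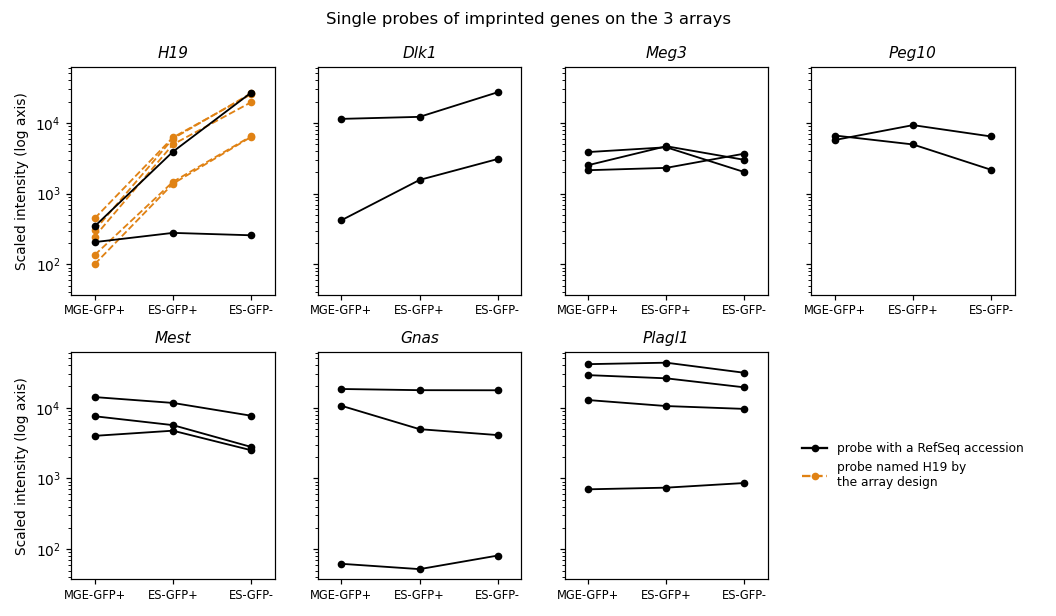
Scaled intensity (log axis) of the single probes of 7 imprinted genes on the 3 arrays, each line 1 probe; dashed lines are the 5 probes that the array design names *H19*. Of the 7 *H19* probes, 6 were lowest on the MGE-GFP+ and highest on the ES-GFP- array while 1 stayed between 206 and 278, and the probes of *Meg3* crossed.

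*Grb10*, an adaptor that dampens insulin and IGF signaling, is made from the maternal copy in most tissues and from the paternal copy in neurons. It read 1239 on the MGE-GFP+, 1620 on the ES-GFP+ and 6221 on the ES-GFP- array. The ES-GFP- array was high and the GFP+ arrays were near each other, so that *Grb10* was 5.02-fold lower in MGE-GFP+ and 3.84-fold lower in ES-GFP+ than in ES-GFP- cells. The difference between MGE-GFP+ and ES-GFP+ cells, -0.39, was below 2 SDs of the repeat spots and turned to 0.36 with the 50th percentile. Its neighbor *Cobl* read 351 to 492. Radial glia genes were also higher on the ES-GFP- array. Of these, 7 of 8 were at least 2-fold lower in MGE-GFP+ (median -2.86) and 7 of 8 in ES-GFP+ cells (median -2.10), beside 17.2% and 6.41% of all genes. Only 5 of the 8 were above the control range on each GFP+ array. With the floor at the control range 6 of 8 and 5 of 7 were lower, beside 10.6% and 5.98%. The part of radial glia genes in the level of *Grb10* or *Dlk1* was not tested.

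In the *Peg3* cluster the genes did not move together. *Usp29*, which encodes a deubiquitinase and is read away from *Peg3* from the overlapping window noted above, read 6740 on the MGE-GFP+, 7483 on the ES-GFP+ and 2778 on the ES-GFP- array. Both GFP+ arrays were high, and *Usp29* was 2.43-fold higher in MGE-GFP+ and 2.69-fold higher in ES-GFP+ than in ES-GFP- cells. *Peg3*, a zinc finger protein abundant in brain, read 4493, 5999 and 5201 and stayed within 1.34-fold. *Zim1*, the maternally expressed zinc finger gene of the cluster, read 13.2, 231 and 264, and was within the control range on all but the ES-GFP- array. MGE-GFP+ cells were at least 10.1-fold and at least 11.5-fold lower, and with the floor at the control range 1 difference remained, at most -1.33 against ES-GFP- cells.

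In the *Peg10* cluster, *Asb4*, part of a ubiquitin ligase, read 3219 on the MGE-GFP+, 1629 on the ES-GFP+ and 3862 on the ES-GFP- array. It was thus low on the ES-GFP+ array, by 1.98-fold against MGE-GFP+ and by 2.37-fold against ES-GFP- cells, with both probes on the same side. *Calcr*, the calcitonin receptor, read 309, 704 and 243 and was high on the ES-GFP+ array, 2.28-fold above MGE-GFP+ and 2.90-fold above ES-GFP- cells. The retrotransposon-derived *Peg10* gave log2 differences of 1.61 and -0.17 with its probes in MGE-GFP+ against ES-GFP- cells, and a mean of 0.72. *Sgce*, a sarcoglycan, read 1260, 2173 and 2179 and *Ppp1r9a*, a neuronal actin-binding protein, 1426 to 2126, both within 2-fold.

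*Mest*, a hydrolase-like protein made from the paternal copy, and *Copg2*, a coatomer subunit of the opposite strand whose end overlaps *Mest*, were both lower on the ES-GFP- array. *Mest* read 7550, 6805 and 3783 on the MGE-GFP+, ES-GFP+ and ES-GFP- array, just under 2-fold between the first and the last. *Copg2* read 7367, 8453 and 3601, 2.05-fold higher in MGE-GFP+ than in ES-GFP- cells. The sources differ on the labeling kit, and whether it kept the strand is not settled, so signal from overlapping or antisense genes cannot be told apart. This also holds for *Airn*, the antisense RNA of *Igf2r*, whose brighter probe read 2636 to 3179.

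The genes of the Prader-Willi region and *Nnat* are known for their expression in neurons, and none of them differed 2-fold between MGE-GFP+ and ES-GFP+ cells. With the 50th percentile *Ndn* and *Nnat* did, at log2 differences of 1.12 and 1.02. *Ndn*, a MAGE protein of postmitotic neurons, read 10014 on the MGE-GFP+, 7746 on the ES-GFP+ and 4309 on the ES-GFP- array, a 2.32-fold difference between the first and the last. *Magel2*, a related gene, read 18311, 17376 and 10789. *Nnat*, a small proteolipid, read 171474, 141565 and 86630 and was 1.98-fold higher in MGE-GFP+ than in ES-GFP- cells. All 3 were lowest on the ES-GFP- array. Of the 8 neuronal marker genes, 8 had a positive difference between MGE-GFP+ and ES-GFP- cells, beside 8069 of 17026 genes. Their median was 0.97, beside -0.06 for all genes. Only 2 of the 8 were at least 2-fold higher in MGE-GFP+ cells, beside 9.90% of all genes. The part of neuronal genes in the levels of *Ndn*, *Magel2* and *Nnat* was not tested. *Mkrn3*, *Peg12*, *Snrpn* and *Ube3a* stayed within 1.89-fold in every comparison, although the *Mkrn3* probes differed, at -1.55 and -0.28 in MGE-GFP+ against ES-GFP+ cells. *Blcap*, in whose intron *Nnat* lies, read 58867 to 73535.

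*Plagl1*, a zinc finger regulator of other imprinted genes, changed little. It read 10197, 9704 and 8427 over 4 probes, within 1.21-fold. *Inpp5f*, a phosphoinositide phosphatase, read 345 to 371, *Impact*, a regulator of translation, 501 to 634, and *Zrsr1*, a splicing factor, 239 to 386. The *Gnas* locus gives several transcripts from different promoters. Its brightest probe read 17666 to 18424, while the probe for NM_019690 read 10667, 4980 and 4108, a log2 difference of 1.10 and 1.38 for MGE-GFP+ against ES-GFP+ and ES-GFP- cells. *Rasgrf1*, a neuronal exchange factor, lacked the call on the MGE-GFP+ array and was within the control range on the others.

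The genes were also grouped by parental copy, taken from background knowledge that for several genes holds only in some tissues. *Grb10* was counted as maternally expressed. By parental copy, 3 of 21 paternally and 6 of 17 maternally expressed genes were at least 2-fold lower in MGE-GFP+ than in ES-GFP+ cells, with medians of -0.14 and -0.30. Against ES-GFP- cells 3 and 4 were lower and 2 and 1 higher, with medians of 0.10 and -0.030. The background shares of 32.2%, 17.2% and 9.90% apply to these counts too. Of the genes lower than in ES-GFP+ cells, *Zim1*, *Ascl2*, *Slc22a18* and *Rasgrf1* were within the control range on both arrays. With the floor at the control range 2 of 20 paternally (10.0%) and 3 of 14 maternally expressed genes (21.4%) were lower there, beside 10.1% of all genes.

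A further list held 40 imprinted genes, of which 36 had a value. At least 2-fold lower in MGE-GFP+ cells were 10 against ES-GFP+ (27.8%, beside 32.2% of all genes) and 11 against ES-GFP- cells (30.6%, beside 17.2%). With the floor at the control range these were 2 of 24 (8.33%, beside 10.1% of all genes) and 4 of 28 (14.3%, beside 10.6%). Without this floor the medians were -0.29 and -0.49. In MGE-GFP+ cells 1 gene was higher than in ES-GFP+ (2.78%, beside 5.48% of all genes) and 3 than in ES-GFP- cells (8.33%, beside 9.90%). *H13*, a signal peptide peptidase, read 2031 on the MGE-GFP+, 947 on the ES-GFP+ and 882 on the ES-GFP- array and was higher in both. *Mapt*, which encodes the microtubule protein tau, read 17836, 14327 and 7098, and *Bcl2l1*, an inhibitor of apoptosis, 19354, 16498 and 9178. Among the lower genes, *Dcn*, a matrix proteoglycan of mesenchyme, read 30.2, 70.8 and 563. *Zdbf2* read 84.7, 401 and 393 and *Pon2*, a lactonase, 42.1, 81.2 and 349. These were all within the control range on the MGE-GFP+ array. *Gab1*, a docking protein of receptor signaling, read 303, 391 and 706. *Cdkn1c*, the cell cycle inhibitor of the *Kcnq1* domain, read 7836, 6369 and 15358, and was 1.96-fold lower in MGE-GFP+ than in ES-GFP- cells.

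Among 12 genes that keep or set the imprints, 11 had a value. None was at least 2-fold higher in MGE-GFP+ than in ES-GFP+ cells, beside 5.48% of all genes. The 2 lower ones (18.2%, beside 32.2% of all genes), *Dppa3* (12.1 and 165) and *Dnmt3l*, were within the control range on both arrays. Against ES-GFP- cells 1 was higher (9.09%, beside 9.90%) and 3 were lower (27.3%, beside 17.2%). With the floor at the control range 1 of 9 was lower there (11.1%, beside 10.6% of all genes). *Trim28* (5060 to 5852), *Zfp57* (3462 to 4956), *Dnmt1* (1281 to 1584) and *Smchd1* (1746 to 2458) stayed within 2-fold on the 3 arrays. *Ctcf*, which binds the control region between *Igf2* and *H19* on the maternal copy, read 1988 on the MGE-GFP+, 1011 on the ES-GFP+ and 875 on the ES-GFP- array, and was 2.27-fold higher in MGE-GFP+ than in ES-GFP- cells. *Uhrf1*, a partner of DNMT1 in dividing cells, read 1100, 908 and 2758 and was highest on the ES-GFP- array. *Dnmt3l* read 28.4, 64.2 and 331 and was above the control range on the ES-GFP- array alone. Methylation itself was not measured.

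**Figure D5:**
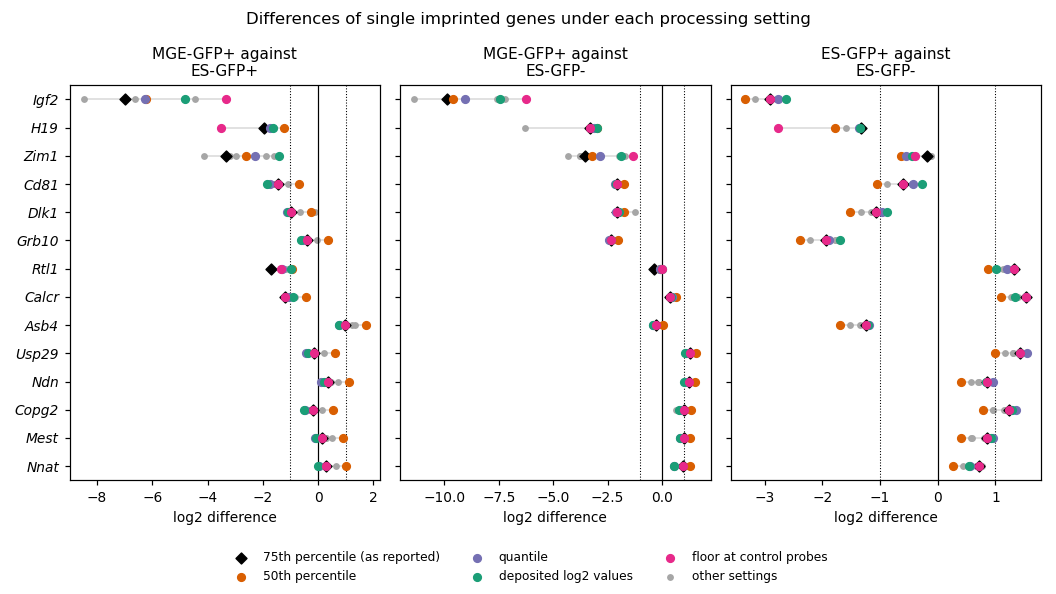
log2 difference of 14 imprinted genes for the 3 pairs of arrays (horizontal axes differ) under the reported setting (diamonds), 4 of the alternatives (colored points) and the others (grey points); dotted lines mark 2-fold. *Igf2*, *H19*, *Zim1* and *Cd81* stayed below 0 in both comparisons with MGE-GFP+ cells, while *Grb10*, *Usp29* and *Copg2* changed sign with the scaling between MGE-GFP+ and ES-GFP+ cells.

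The plot of settings shows how far each call depended on the processing. In MGE-GFP+ against ES-GFP- cells, *Igf2*, *H19*, *Zim1*, *Dlk1*, *Grb10* and *Cd81* were at least 2-fold lower and *Usp29* and *Ndn* at least 2-fold higher in all 13 alternatives. *Copg2* was so in 8 of the 13. In MGE-GFP+ against ES-GFP+ cells, *Igf2* and *H19* were at least 2-fold lower in 13 of 13 alternatives, *Cd81* in 12 and *Rtl1* in 11. *Igf2* and a *Zim1* probe lacked the call on the MGE-GFP+ array. In both comparisons with these cells their direction, though not its size, was thus fixed in the settings that filter dim probes. In ES-GFP+ against ES-GFP- cells, *Igf2*, *H19*, *Grb10* and *Asb4* were at least 2-fold lower and *Calcr* at least 2-fold higher in all 13.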

How the data were processed

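The 3 arrays were hybridized on 1 slide and scanned together. The files the authors deposited hold the intensity of each spot from Agilent Feature Extraction (version 10.7.3.1 in the file headers) after background subtraction, with no scaling between arrays. The deposited log2 values, whose scale is not stated, lay within 0.212 of quantile-normalized log2 median intensities and served as an alternative. The labels and the study's methods name different amplification and labeling kits.

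Spots that the software flagged as outliers were dropped, repeat spots averaged, and each array scaled to its 75th percentile (common value 713). A probe counted as well above background when the software gave that call to a share of 0.5 or more of its spots. A probe without it was raised to the lowest value with the call (a scaled intensity of 15.0 on the MGE-GFP+, 22.4 on the ES-GFP+ and 15.0 on the ES-GFP- array), so folds against it are bounds. Probes were named through RefSeq accessions (26584 probes); the accession of *H19*, absent from the gene table, was named through the study's supplement. Calls were differences of at least 2-fold. With 1 array per group there was no test, and precision is limited by the number of arrays. Each of the 41 genes at least 2-fold different between MGE-GFP+ and an ES array and above the control range on 1 of the arrays is named with its values; of the further lists, those with the largest differences are named, with other examples chosen after their values were seen. The code was tested on simulated data. The genes, lists and tests were chosen with earlier results of these data known. Python 3.11.15, pandas 2.3.3 and, for normexp, limma 3.58.1 were used.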

Additional observations from a re-analysis of the deposited data

How the results depend on the processing

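A total of 13 alternatives were run. Normexp on median intensities, the control range as a filter and centring on the median of all genes were chosen after seeing the data. The planned normexp on mean intensities was not run, since the files give median intensities. No paired analysis was possible because each group has 1 array, and for the same reason no array could be left out. In MGE-GFP+ against ES-GFP+ cells, the 50th percentile gave 8 higher, 4 lower and a median of 0.54, beside 26.0% higher and 17.1% lower of all genes. Centring gave 1 higher (beside 12.7% of all genes) and a median of 0.14. The brightest probe of each gene gave 1 higher, beside 6.38%. Normexp, the floor at the control range and the filter at the control range each gave 5 lower, beside 10.9%, 10.1% and 9.49% of all genes. In MGE-GFP+ against ES-GFP- cells, the 50th percentile gave 7 higher and a median of 0.33, and centring gave 5 higher, beside 17.9% and 11.2% of all genes. In ES-GFP+ against ES-GFP- cells, the 50th percentile gave 2 higher (beside 14.9%) and a median of -0.24, and centring gave a median of -0.061. Elsewhere these counts stayed within 1.5 times the reported ones. Of 1463 values of single genes 1089 moved by less than the repeat-spot SD of a difference and 374 by more, and no difference of at least 2-fold changed direction. Levels within the control range limit what dim genes can show.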
